A study of Rattus norvegicus with 6 samples.

Results

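The miR-106b/93/25 cluster is a set of 3 microRNA (miRNA) hairpins, miR-106b, miR-93 and miR-25. A hairpin is cut into a 5p arm and a 3p arm, so the cluster gives 6 mature miRNAs. The members were all listed miRNAs of these 3 hairpins by name, and all 6 arms were found among the 728 mature miRNAs listed. Small RNA was sequenced from cardiac fibroblasts of neonatal Wistar rats (heart tissue, age 1 to 2 days) and from the exosomes, small membrane vesicles, that these cells released into their medium, with 3 libraries per group. The labels name no genetic change or drug; cells were grown in medium with 10% fetal bovine serum (FBS). Exosomes were collected by ultracentrifugation after 48 h in medium with 1% FBS depleted of exosomes. Nothing in the labels ties the libraries to separate cultures, so a p-value here covers the spread among these libraries, which may be technical. The fibroblast libraries are numbered 1, 2 and 4, and the exosome libraries 1 and 2, with 1 more whose column carries no number (the unnumbered exosome library). These are bulk libraries, so fewer vesicles or cells holding an arm and fewer copies in each cannot be told apart.

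As background, the 3 hairpins lie in an intron of Mcm7, a gene of the DNA replication helicase, and are transcribed with it in dividing cells under E2F factors. The cluster is a paralogue of the miR-17-92 cluster. miRNAs pair with messenger RNAs mainly through the seed, bases 2 to 8, and miR-106b-5p and miR-93-5p share theirs with miR-17-5p and miR-20a-5p, whose known targets include the cell cycle inhibitor p21 and the pro-apoptotic Bim. miR-25-3p has the seed of miR-92a-3p and is known to repress the calcium pump SERCA2a in heart. miR-106b-5p, miR-93-5p and miR-25-3p are usually the guide arms, kept in the silencing complex, while miR-106b-3p, miR-93-3p and miR-25-5p are usually the less abundant passenger arms.

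The 6 arms are printed first because the results turn on which arm of a hairpin was counted; capitals mark the seed. Sequences are from RefSeq (build GRCr8, all on the minus strand); the files themselves hold no coordinates. All 6 arms matched by name; the prefix rno marks rat miRNAs and is left out in the text.

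rno-miR-106b-5p, chr12:22157103-22157123: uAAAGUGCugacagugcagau

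rno-miR-106b-3p, chr12:22157062-22157083: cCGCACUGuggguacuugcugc

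rno-miR-93-5p, chr12:22156894-22156916: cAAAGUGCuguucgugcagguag

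rno-miR-93-3p, chr12:22156856-22156878: aCUGCUGAgcuagcacuucccga

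rno-miR-25-5p, chr12:22156690-22156711: aGGCGGAGacacgggcaauugc

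rno-miR-25-3p, chr12:22156652-22156673: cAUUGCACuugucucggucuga

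The annotation places all 3 hairpins within the span of Mcm7. miR-106b-5p and miR-93-5p share the seed AAAGUGC and a run of 9 bases, so they are 1 seed group within the cluster. The other 4 arms each have a seed of their own, and the 3p arms of miR-106b and miR-93 and the 5p arm of miR-25 share theirs with 0 other listed miRNAs. The hairpins of miR-93 and miR-25 are printed with both mature arms in capitals, to show how the arms compared below sit opposite each other.

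Mir93, chr12:22156844-22156930: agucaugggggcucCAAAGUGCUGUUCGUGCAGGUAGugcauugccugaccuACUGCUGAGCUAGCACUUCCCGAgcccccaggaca

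Mir25, chr12:22156641-22156724: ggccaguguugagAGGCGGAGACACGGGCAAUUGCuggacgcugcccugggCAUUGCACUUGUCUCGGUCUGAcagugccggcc

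The libraries differed in depth and composition in ways that touch every value below. Total miRNA counts were 113129 to 120224 in exosomes and 2439559 to 12508651 in fibroblasts. A different miRNA, miR-873-3p, held 84.9% to 90.1% of exosome counts and 0.391% to 2.37% of fibroblast counts. Only 11825 to 18164 exosome counts were left for all other miRNAs, so values are given as CPM, counts scaled to a library total of 1000000, and also as CPM of the total without miR-873-3p. The unnumbered exosome library stood apart, with 576 miRNAs detected against 677 and 673, and its scaling factor in the test was 0.433 against 1.34 and 1.13. Fibroblast identity was checked with 6 mesenchymal miRNAs, among them miR-143-3p and miR-199a-3p: they made up 34.1% to 38.5% of fibroblast counts, against 0.00803% to 0.0201% for 7 cardiomyocyte and muscle miRNAs. In exosomes the same lists held 0.114% to 0.861% and 0.00504% to 0.0133%. The 2 endothelial miRNAs of the marker lists, both arms of miR-126a, held 0.0840% to 0.0966% of exosome and 0.0100% to 0.0152% of fibroblast counts. The 2 arms differed, with a log2 fold change (exosomes over fibroblasts) of 4.85 (SE 0.85) for miR-126a-3p and 0.30 (SE 0.64) for miR-126a-5p. Out of all counts the shares of the blood, the liver and serum, and the epithelial lists overlapped between the groups. Out of the total without miR-873-3p these lists held 0.143% to 0.181%, 0.00697% to 0.0440% and 0.0907% to 0.231% of exosome counts. Those shares were above the fibroblast shares of all counts, 0.00570% to 0.0299%, 0.000697% to 0.00349% and 0.0105% to 0.0261%. The same held for the cardiomyocyte and muscle list, at 0.0507% to 0.0881%, but not for the mesenchymal list, at 0.754% to 8.66%. No marker list was at 0 in a whole group. The part of other cells in the results below was not tested.

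In exosomes the cluster consisted almost wholly of the passenger arm miR-93-3p, while in fibroblasts the guide arms miR-25-3p and miR-93-5p led. The 6 arms together held 807, 750 and 807 counts in exosome libraries 1, 2 and unnumbered, and 14889, 30763 and 5742 counts in fibroblast libraries 1, 2 and 4. This was 0.671% ± 0.00762 of exosome counts and 0.238% ± 0.00672 of fibroblast counts (SD, n = 3 each; p = 0.1 in an exact two-sided permutation test, where 3 against 3 libraries can reach no smaller p). The higher exosome share was that of miR-93-3p alone. Together the other 5 arms were counted 86, 66 and 45 times in exosomes and 14110, 28940 and 5199 times in fibroblasts, which is 0.0378% to 0.0715% against 0.213% to 0.231% of the total, with no overlap. Out of the total without miR-873-3p the order of the same 5 arms turned, to 0.438% ± 0.0503 in exosomes and 0.225% ± 0.00702 in fibroblasts (SD, n = 3 each; exact two-sided permutation p = 0.1).

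**Figure D1:**
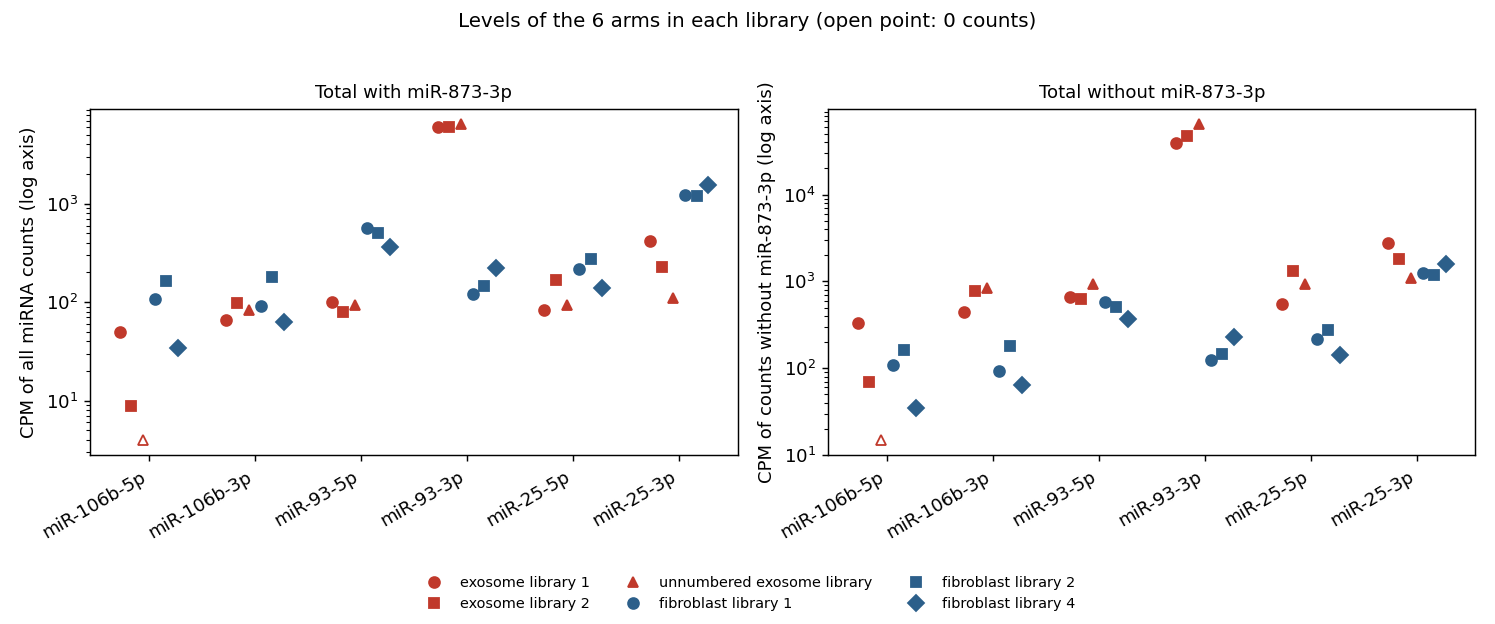
Levels of the 6 arms in each of the 6 libraries, as CPM of all miRNA counts (left) and of the counts without miR-873-3p (right), both on log axes; red marks exosome and blue marks fibroblast libraries, and the open triangle is miR-106b-5p, with 0 counts, in the unnumbered exosome library, drawn at an arbitrary low position. miR-93-3p is the arm that stands above the fibroblast libraries by over 1 order of the log axis in both panels, while miR-93-5p lies below them on the left and above them on the right.

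miR-25-3p, a guide arm, was the most abundant arm of the cluster in every fibroblast library. It had 7816, 14896 and 3741 counts in fibroblast libraries 1, 2 and 4, and 50, 26 and 13 counts in exosome libraries 1, 2 and unnumbered. On the CPM scale these were 1226, 1191 and 1533 in fibroblasts and 416, 230 and 109 in exosomes. The groups did not overlap, and the unnumbered library was the lowest. In the test across all miRNAs miR-25-3p was 4.95-fold lower in exosomes (log2 fold change -2.31, SE 0.83; quasi-likelihood F test of edgeR, Benjamini-Hochberg adjusted p = 0.021). By abundance it ranked 47 to 61 among miRNAs in fibroblasts and 75 to 109 in exosomes.

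miR-93-5p, a guide arm of the miR-17 seed group, was the second arm of the cluster in fibroblasts. It had 3637, 6343 and 883 fibroblast counts (570, 507 and 362 CPM) and 12, 9 and 11 exosome counts (99.8, 79.6 and 92.4 CPM). On this scale the exosome libraries were close to each other and all below the fibroblast libraries. After the scaling of the test miR-93-5p stood at 74.3, 70.5 and 213 CPM in exosome libraries 1, 2 and unnumbered. It was 3.92-fold lower in exosomes (log2 fold change -1.97, SE 0.71; edgeR adjusted p = 0.022), and 6.34-fold lower without the unnumbered library.

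miR-106b-5p, the other guide arm with that seed, was the scarcest arm in both groups by mean CPM. It had 693, 2042 and 83 fibroblast counts (109, 163 and 34.0 CPM), and 6, 1 and 0 exosome counts (49.9, 8.84 and 0 CPM). A count of 0 in the unnumbered library allows a share of up to 0.00252% of its total (3 counts, counting error only), which is below the lowest fibroblast share of 0.00340%. Out of the total without miR-873-3p, 3 counts are 0.0254% of that library, above every fibroblast share of miR-106b-5p (0.00348% to 0.0164%). On that scale the 0 does not show a lower level. The groups overlapped, since exosome library 1 lay above fibroblast library 4. The fit gave a log2 fold change of -2.05 (SE 0.75; edgeR adjusted p = 0.025), and -4.05 without exosome library 1.

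The passenger arms of miR-106b and miR-25 did not pass the test. miR-106b-3p had 8, 11 and 10 exosome counts (66.5, 97.2 and 84.0 CPM) and 583, 2262 and 152 fibroblast counts (91.4, 181 and 62.3 CPM), with overlapping groups. Its log2 fold change was 0.18 (SE 0.62, 95% interval -1.04 to 1.41; edgeR adjusted p = 0.87). miR-25-5p had 10, 19 and 11 exosome counts (83.2, 168 and 92.4 CPM) and 1381, 3397 and 340 fibroblast counts (217, 272 and 139 CPM), again with overlap. Its log2 fold change was -0.41 (SE 0.63, 95% interval -1.66 to 0.83; edgeR adjusted p = 0.69). At 8 to 19 counts per exosome library these intervals leave changes in either direction possible.

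miR-93-3p went the opposite way from its partner arm. It had 721, 684 and 762 counts in exosome libraries 1, 2 and unnumbered, about as many as the 779, 1823 and 543 counts in the far deeper fibroblast libraries 1, 2 and 4. On the CPM scale it reached 5997, 6046 and 6404 in exosomes and 122, 146 and 223 in fibroblasts. On this scale the exosome libraries differed little from each other, and every one was above every fibroblast library. After the scaling of the test miR-93-3p stood at 4466, 5360 and 14787 CPM in exosome libraries 1, 2 and unnumbered. It was 51.3-fold higher in exosomes (log2 fold change 5.68, SE 1.30; edgeR adjusted p = 0.00019), and 27.8-fold higher without the unnumbered library. Among all miRNAs its rank by abundance was 4, 3 and 4 in exosomes, against 217, 322 and 145 in fibroblasts.

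Of the 6 arms, all of which passed the count filter, 3 were lower and 1 was higher in exosomes. Over all 698 miRNAs tested, 29.9% were called, 18.6% as lower and 11.3% as higher. The median log2 fold change of the 6 arms was -1.19 against -0.15 for all tested. Exosome and fibroblast CPM did not overlap for 3 of the 6 arms (miR-25-3p, miR-93-5p and miR-93-3p), against 30.1% of all tested miRNAs.

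On the CPM scale without miR-873-3p the picture of the arms was different. miR-93-3p reached 39694, 47705 and 64440 CPM in exosomes against 124, 146 and 228 in fibroblasts, and stayed the highest arm in exosomes. miR-25-5p had 551, 1325 and 930 CPM in exosomes and 219, 273 and 143 in fibroblasts, now with no overlap. The same held for miR-106b-3p, at 684 ± 215 against 113 ± 61.4, and for miR-93-5p, at 740 ± 166 against 486 ± 105 (SD, n = 3 each). The groups overlapped for miR-25-3p, at 1888 ± 829 against 1336 ± 205, and for miR-106b-5p, which ranged from 0 to 330 in exosomes and from 34.8 to 164 in fibroblasts. Thus 4 of the 6 arms did not overlap, each higher in exosomes, where 57.5% of the miRNAs did not overlap.

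The guide arms lost their calls without single exosome libraries, with fold changes of the same direction and larger SE. Without exosome library 1 the log2 fold change was -2.60 for miR-25-3p (edgeR adjusted p = 0.065) and -1.78 for miR-93-5p (0.15), and without library 2 it was -2.49 (0.11) and -2.04 (0.13). For miR-106b-5p it was -1.80 without library 2 (0.14) and -1.78 without the unnumbered library (0.067). With library sizes taken from the counts without miR-873-3p, a setting chosen after the data were seen, the log2 fold changes of miR-25-3p, miR-93-5p and miR-106b-5p turned to 0.51, 0.60 and 0.49 and were not called, miR-25-5p and miR-106b-3p were called higher (2.14 and 2.59), and miR-93-3p stayed higher (8.25; edgeR adjusted p = 1.8e-13). That setting moved the median of all tested miRNAs from -0.15 to 2.37, and called 54.3% of them higher and 5.17% lower. Taken relative to the median of all tested miRNAs in each fit, miR-25-3p lay between -2.26 and -1.60, miR-93-5p between -2.47 and -1.37 and miR-106b-5p between -3.69 and -1.40 on the log2 scale over all fits run. miR-93-3p lay 4.99 to 6.48 above that median, miR-25-5p between -0.64 and 0.23 and miR-106b-3p between -0.28 and 0.84.

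**Figure D2:**
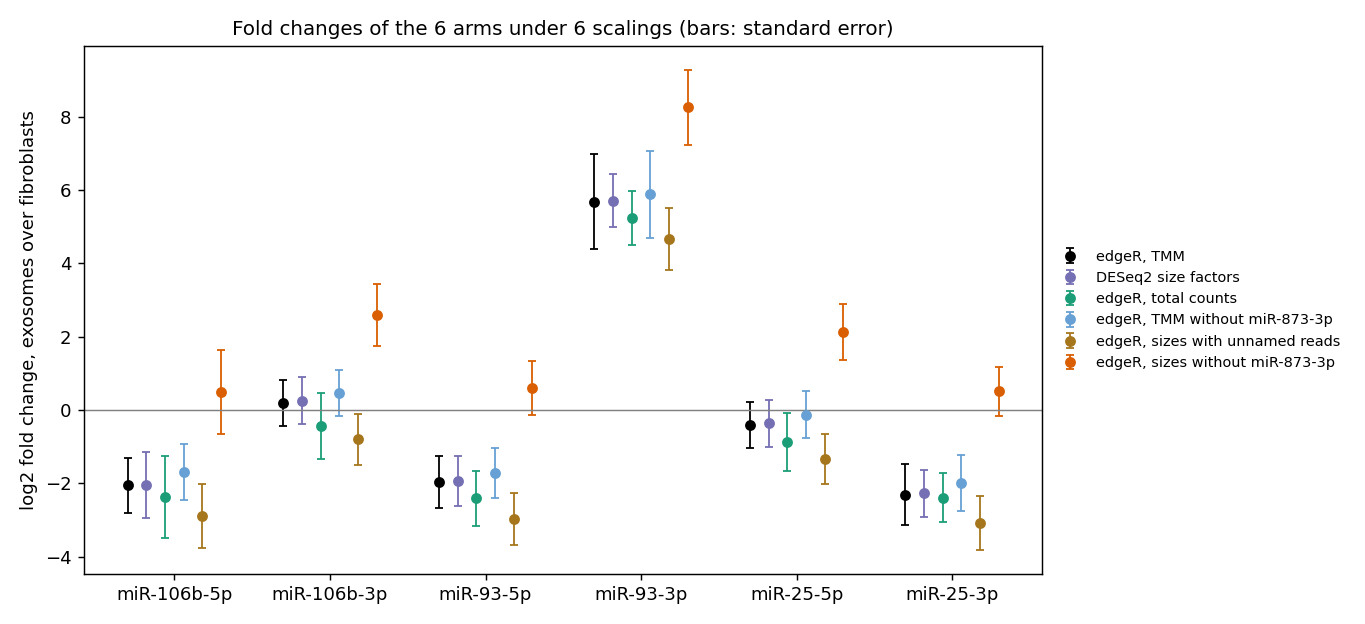
Log2 fold change (exosomes over fibroblasts) of each arm under 6 ways of scaling the libraries; points are estimates and bars are standard errors. miR-93-3p is above 4 in each, whereas the orange points (library sizes without miR-873-3p) move the 3 guide arms from about -2 to about 0.5.

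Shares within the cluster need no scaling between libraries. In fibroblasts miR-25-3p made up 52.5%, 48.4% and 65.2% of the cluster's counts and miR-93-5p 24.4%, 20.6% and 15.4%. miR-93-3p made up 5.23%, 5.93% and 9.46% there, and 89.3%, 91.2% and 94.4% of the cluster's counts in exosome libraries 1, 2 and unnumbered. Its share averaged 91.7% ± 2.57 over the exosome libraries, against 6.87% ± 2.27 for fibroblasts (SD, n = 3 each; exact two-sided permutation p = 0.1, the smallest possible, and the same for each of the 6 arms). Each of the other 5 arms had a lower share in every exosome library than in any fibroblast library, which a share of over 89% for 1 arm forces in part.

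**Figure D3:**
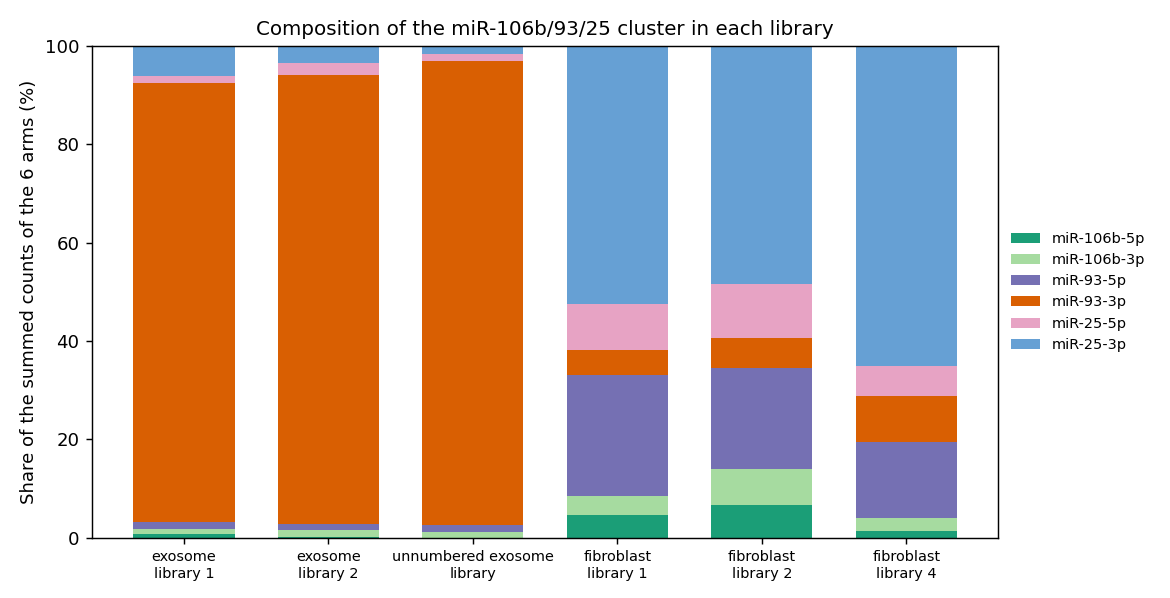
Share of the summed counts of the 6 arms that each arm held, by library; each bar adds up to all counts of the cluster in that library. The orange block, miR-93-3p, takes 89.3% to 94.4% of the exosome bars and 5.23% to 9.46% of the fibroblast bars, where the blue block, miR-25-3p, is the largest.

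Without miR-93-3p in the sum, the shares of 4 of the other 5 arms overlapped between the groups. miR-25-3p then held 28.9% to 58.1% of exosome and 51.5% to 72.0% of fibroblast counts of the 5 arms, with overlap. miR-93-5p held 17.3% ± 6.15 and 21.6% ± 4.41 (SD, n = 3 each), also with overlap. The passenger arm miR-106b-3p held 9.30% to 22.2% in exosomes and 2.92% to 7.82% in fibroblasts, with no overlap (p = 0.1, exact permutation test, two-sided; 5 arms compared). These exosome shares rest on 45 to 86 counts per library.

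The order of the levels also differed. All 6 arms are 21 to 23 bases long, so CPM was compared between them without a length correction. In fibroblasts miR-25-3p was above miR-93-5p, and miR-93-5p above miR-25-5p, in all 3 libraries. The next by mean CPM were miR-25-5p (209 ± 66.4), miR-93-3p (163 ± 52.5), miR-106b-3p (112 ± 61.8) and miR-106b-5p (102 ± 64.9) (SD, n = 3 each). Neighbours in this order changed places between libraries and did not differ beyond their spread, but miR-25-5p was above both arms of miR-106b in all 3. In exosomes miR-93-3p (6149 ± 222) was followed by miR-25-3p (252 ± 154), miR-25-5p (115 ± 46.5), miR-93-5p (90.6 ± 10.3) and miR-106b-3p (82.6 ± 15.4). Between libraries miR-93-5p changed places with miR-25-5p and with miR-106b-3p, while miR-25-5p was above miR-106b-3p in all 3. The lowest in all 3 was miR-106b-5p (19.6 ± 26.6) (SD, n = 3 each).

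Arm shares compare each hairpin with itself. The 3p arm gave 98.4%, 98.7% and 98.6% of miR-93 counts in exosome libraries 1, 2 and unnumbered, out of 733, 693 and 773 counts of both arms. The 95% Clopper-Pearson intervals of these shares lay between 97.2% and 99.4%. In fibroblast libraries 1, 2 and 4 the 3p arm gave 17.6%, 22.3% and 38.1%, out of 4416, 8166 and 1426 counts. The 5p arm was thus the major arm of miR-93 in every fibroblast library and the minor arm in every exosome library.

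The test of arm usage asks whether an arm moved apart from its hairpin, and its differences are natural logarithms, not log2. miR-93-5p was lower than its hairpin, with a difference of -4.00 (edgeR's diffSpliceDGE with Benjamini-Hochberg adjustment, adjusted p = 2.3e-08). Of the 496 arms tested, 13.9% were called. miR-93-3p had a difference of 1.30 on the same scale, which did not pass (diffSpliceDGE adjusted p = 0.19). With 1 test per hairpin, a form added after the data were seen, miR-93 had an adjusted p = 2.4e-09 in diffSpliceDGE, and 33.5% of the 248 hairpins were called. The fitted fold changes of the arms of miR-93 lay 7.65 apart on the log2 scale. This difference was the largest of the 248 hairpins, whose median was 1.63.

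miR-106b and miR-25 gave no such call. The 3p arm gave 57.1%, 91.7% and 100% of miR-106b counts in exosomes, out of only 14, 12 and 10 counts, and 45.7%, 52.6% and 64.7% in fibroblasts. For miR-25 it gave 83.3%, 57.8% and 54.2% in exosomes, out of 60, 45 and 24 counts, and 85.0%, 81.4% and 91.7% in fibroblasts. The groups overlapped for both hairpins. No arm of either passed in diffSpliceDGE (adjusted p from 0.15 to 0.96), and the hairpins had adjusted p = 0.086 for miR-106b and 0.064 for miR-25. Over all hairpins with reads in every library, 39.4% had arm shares that did not overlap between the groups, as miR-93 did.

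**Figure D4:**
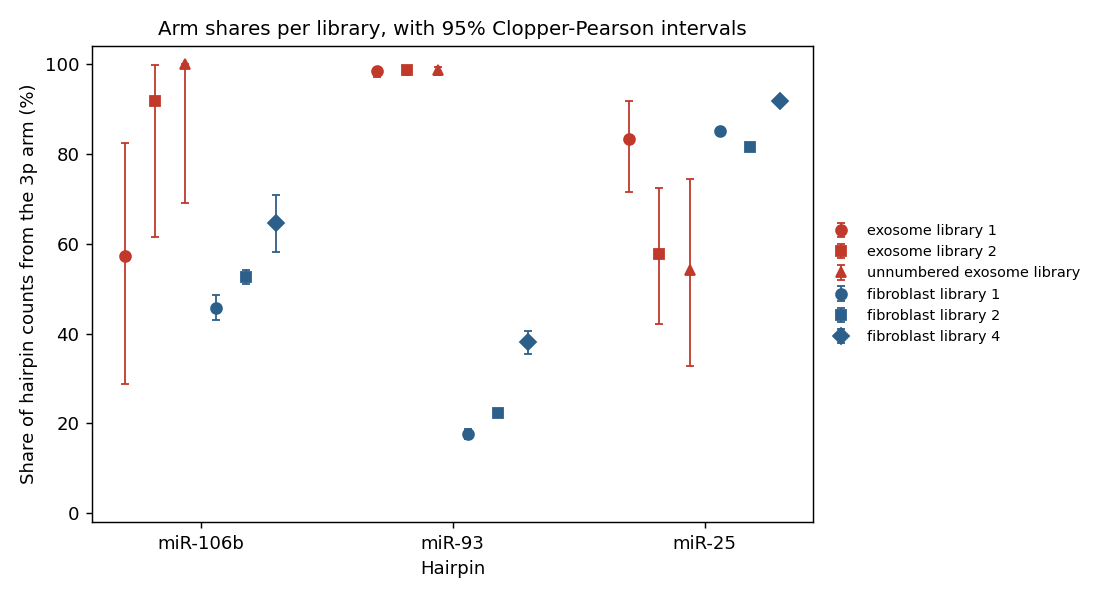
Share of each hairpin's counts that came from its 3p arm, by library, with 95% Clopper-Pearson intervals. miR-93 shares are 98.4% to 98.7% in the red exosome libraries and 17.6% to 38.1% in the blue fibroblast libraries, while the exosome shares of miR-106b (57.1% to 100%) and miR-25 (54.2% to 83.3%) spread widely and overlap the fibroblast shares.

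The counts of miR-93-3p in exosomes went with those of miR-873-3p, which fills the exosome libraries. miR-93-3p had 7.06, 6.92 and 7.11 counts per 1000 counts of miR-873-3p in exosome libraries 1, 2 and unnumbered, and 9.72, 37.2 and 9.38 in fibroblast libraries 1, 2 and 4. Its raw exosome counts varied with a coefficient of variation of 5.40%, where counting alone gives 3.72% at that depth. Of 27 miRNAs with a mean exosome count of 100 or more it was the 4 lowest in this variation, and miR-873-3p itself had 4.11%. The other arms had 0 to 0.490 counts per 1000 of miR-873-3p in exosomes and 1.43 to 304 in fibroblasts. In fibroblast libraries 1, 2 and 4, miR-873-3p held 1.26%, 0.391% and 2.37% of counts, beside 122, 146 and 223 CPM of miR-93-3p; library 2 was the lowest in the first and not in the second. The part of miR-873-3p in these values was not tested.

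**Figure D5:**
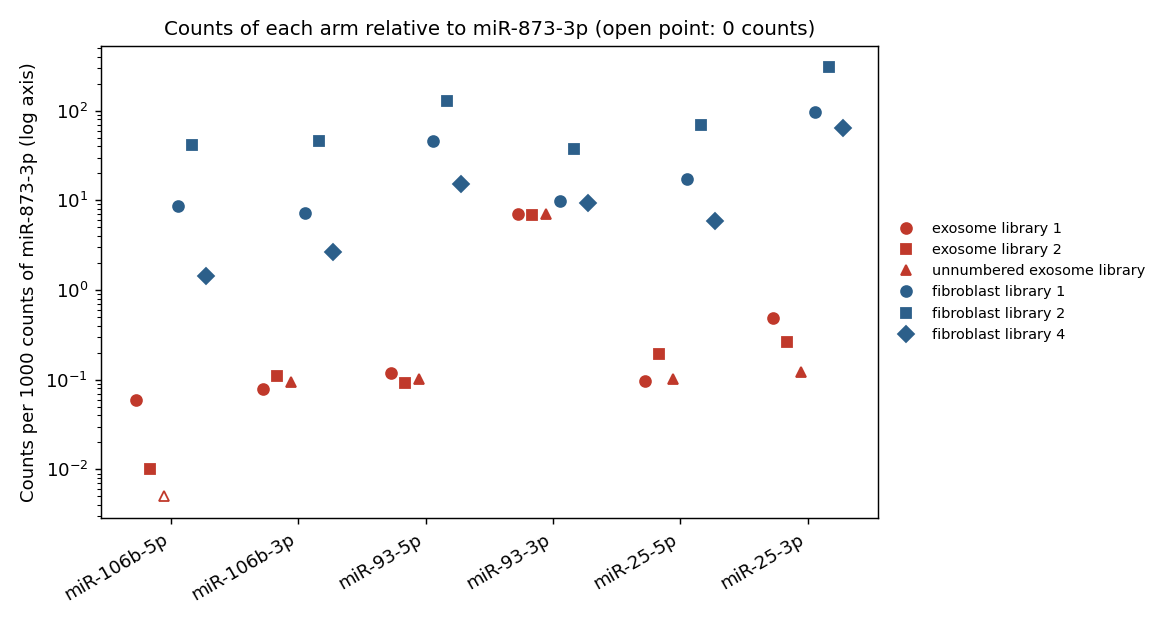
Counts of each arm per 1000 counts of miR-873-3p in each library, on a log axis; the open triangle is miR-106b-5p with 0 counts, drawn at an arbitrary low position. For each of the 6 arms every exosome library lies below every fibroblast library. For miR-93-3p the values are 6.92 to 7.11 against 9.38, 9.72 and 37.2. miR-873-3p held 84.9% to 90.1% of exosome and 0.391% to 2.37% of fibroblast counts. A lower ratio in exosomes therefore does not show a lower level of an arm.

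miR-93-3p and miR-873-3p are printed side by side because of this ratio; capitals mark the longest run of bases that they share.

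miR-93-3p: acugcugagcuagcacUUCCCGa

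miR-873-3p: gagacugacaagUUCCCGgga

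The run is 6 bases long, at bases 17 to 22 of miR-93-3p and 13 to 18 of miR-873-3p. Of 654 other listed miRNAs with a RefSeq sequence, 34 (5.20%) share a run of at least 6 bases with miR-873-3p. miR-106b-5p is among them. A shared run is a description of the letters only.

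The normalized table that the authors deposited alongside the raw counts keeps fewer reads of some arms. miR-93-3p had 720, 684 and 762 reads there in exosomes, nearly all of its raw counts of 721, 684 and 762. In fibroblasts it had 729, 1643 and 531, fewer than the raw 779, 1823 and 543. With the reads of that table its log2 fold change was 5.43 (SE 1.22). miR-25-5p had 8, 12 and 8 reads in exosomes and 927, 2704 and 269 in fibroblasts, fewer in every library. The other 4 arms kept nearly all of theirs. In the authors' deposited table of the DESeq comparison, the ratio of exosome to fibroblast mean was 55.0 for miR-93-3p (adjusted p = 0.921), 0.206 for miR-25-3p (0.416), 0.281 for miR-93-5p (0.430) and 0.197 for miR-106b-5p (0.943). That table called 53 of 728 miRNAs at an adjusted p under 0.05, and the adjusted p of the 6 arms lay between 0.416 and 1.

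The paralogous clusters miR-17-92 and miR-106a-363, which hold close copies of these hairpins, had 19 listed arms, all past the filter. Of these 1 was lower and 0 were higher in exosomes, with a median log2 fold change of -0.12, where 18.6% of all tested miRNAs were lower and 11.3% higher. With library sizes without miR-873-3p 0 were lower and 9 higher, with a median of 2.33, where 54.3% of all tested were higher and 5.17% lower. The lower arm was miR-18a-3p, with 4, 7 and 0 exosome and 1652, 2651 and 107 fibroblast counts (log2 fold change -2.22, SE 0.70; edgeR adjusted p = 0.0081). The most abundant was miR-92a-3p, with 78, 39 and 31 exosome and 12530, 33110 and 4102 fibroblast counts. Its log2 fold change of -1.99 (SE 0.88) was near that of miR-25-3p and did not pass (edgeR adjusted p = 0.072). miR-363-5p had -0.63 (SE 0.63; edgeR adjusted p = 0.49). Arm usage was tested for the hairpins of these clusters whose 2 arms are listed under the same name. Of these, miR-18a had a 3p share of 0% to 77.8% in exosomes, out of 24 counts in all 3 libraries. In fibroblasts its 3p share was 80.5% to 87.2% (diffSpliceDGE per hairpin, adjusted p = 0.045). The hairpins miR-20a, miR-20b, miR-19a and miR-363 did not pass (adjusted p from 0.15 to 0.69). For miR-17, miR-19b and miR-92a, 1 arm is listed under numbered names such as miR-92a-1-5p, and their arm usage was not tested. miR-92a-1-5p and miR-92a-2-5p had log2 fold changes of 1.31 (SE 0.63) and -0.25 (SE 0.65), beside -1.99 for miR-92a-3p. Neither of these 5p arms passed (edgeR adjusted p = 0.10 and 0.82). No test of the difference between the clusters was made.

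The other members of each seed group that passed the count filter are printed with the seed in capitals. They show which miRNAs would read the same target sites as the guide arms.

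miR-17-5p: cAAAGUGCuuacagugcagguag

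miR-20a-5p: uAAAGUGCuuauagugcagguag

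miR-20b-5p: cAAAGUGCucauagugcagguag

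miR-92a-3p: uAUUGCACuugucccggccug

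miR-92b-3p: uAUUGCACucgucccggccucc

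miR-363-3p: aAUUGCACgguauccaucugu

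With the seed AAAGUGC, miR-93-5p was the most abundant miRNA in both groups, at 480 ± 107 CPM in fibroblasts and 90.6 ± 10.3 CPM in exosomes (SD, n = 3 each). miR-17-5p had 210, 976 and 81 fibroblast counts and 2, 7 and 1 exosome counts, and miR-20a-5p 79, 367 and 44 and 5, 2 and 0. None of the 3 other miRNAs with this seed passed the edgeR test (log2 fold change -0.37, 0.20 and -0.19 for miR-17-5p, miR-20a-5p and miR-20b-5p), while miR-93-5p and miR-106b-5p were called lower. With the seed AUUGCAC, miR-92b-3p had 218, 164 and 138 exosome counts and 3865, 10374 and 1388 fibroblast counts. Its log2 fold change was 1.59 (SE 0.86; edgeR adjusted p = 0.16), of the opposite sign to those of miR-25-3p and miR-92a-3p. miR-363-3p had 0.32 (SE 0.73; edgeR adjusted p = 0.80), and the fourth, miR-32-5p, had 0 exosome counts and did not pass the filter.

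The miRNAs whose level over the 6 libraries was most like that of each arm were found by Pearson's r of log2(CPM + 1) after scaling; r is given as a description over 6 libraries that fall into 2 groups and share their depth. For miR-93-3p they were miR-126a-3p, miR-320-5p and miR-99a-3p (r = 0.998, 0.997 and 0.997). For miR-25-3p they were miR-199a-5p, miR-23b-3p and miR-450a-5p (0.983, 0.982 and 0.978), and for miR-93-5p miR-181d-5p, miR-30d-5p and miR-30e-5p (0.995, 0.993 and 0.989). miR-106b-5p was nearest to miR-215, miR-26b-3p and miR-3575 (0.99, 0.99 and 0.98). For miR-106b-3p they were miR-210-3p, miR-96-5p and miR-20b-5p (0.95, 0.94 and 0.92) and for miR-25-5p miR-340-5p, miR-19b-3p and miR-92a-2-5p (0.97, 0.96 and 0.92). No arm of the cluster was among the 3 nearest of another arm. miR-93-3p and miR-93-5p, cut from the same hairpin, had r = -0.70, and miR-93-5p and miR-25-3p, guide arms of neighbouring hairpins, had r = 0.86.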

How the data were processed

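Every main test used the raw counts of each mature miRNA that the authors deposited, all whole numbers. The second table deposited by the authors holds normalized signal, the counts after division by a size factor; multiplied back, its values lay within 0.000425 of whole reads (tolerance 0.05). In the authors' deposited comparison, per the file headers, a fold change (ratio), its log2 value and p-values stand beside mean normalized signal. The submitters' processing notes list CASAVA 1.8.2, cutadapt 1.2.1, DESeq and rn5. Which aligner, counting rule and miRNA annotation were used is not given in the sources used here. Columns were matched to samples by name.

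Counts were fitted with edgeR 4.0.16 in R 4.3.3 (TMM, filterByExpr with minimum count 10, quasi-likelihood test, two-sided, Benjamini-Hochberg, threshold 0.05); 698 of 728 miRNAs passed. The SE was derived from each fold change and its F statistic. Arm usage was tested with diffSpliceDGE (248 hairpins whose 2 arms are listed under the same name and passed). The scripts were tested on simulated data that began from the same mean profile in both groups. That profile did not copy the difference in miR-873-3p between the groups. Shares were compared by exact permutation tests (scipy 1.17.1); p-values adjusted over the cluster alone are not given. Because PCR copies are not independent molecules, intervals and floors cover counting error alone. A row of reads naming no miRNA (63.1% to 84.4% of reads per library) stayed out of library sizes except in 1 alternative. Alternatives were other scalings, DESeq2 1.42.0, no filter, the normalized table's reads, thinned fibroblast libraries, each library left out and a replicate block. All 6 arms were named, with the most abundant or called miRNAs of 3 comparison lists and the 3 miRNAs nearest to each arm. The members and lists were chosen with earlier results of these data known.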

Additional observations from a re-analysis of the deposited data

How the results depend on the processing

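miR-93-3p kept its direction and its call in all 15 alternatives run (log2 fold change 4.66 to 8.25, edgeR or DESeq2 adjusted p up to 0.0058). The lower usage of miR-93-5p against its hairpin did so in all 14 run for it (difference of -4.07 to -3.88, in natural logarithms). With library sizes without miR-873-3p (chosen after the data were seen), miR-106b-5p, miR-93-5p, miR-25-3p and miR-25-5p turned to 0.49, 0.60, 0.51 and 2.14, miR-106b-3p rose to 2.59, and 36 miRNAs were lower and 378 higher in place of 130 and 79. With total counts 43 miRNAs were higher, 43 arms in place of 69 were called, miR-106b-5p was not called (-2.37) and miR-106b-3p turned to -0.44. With library sizes from all reads 35 miRNAs were higher and miR-106b-3p turned to -0.80. miR-106b-5p was also not called with TMM without miR-873-3p (-1.69) and with DESeq2 (-2.04). With thinned fibroblast libraries miR-25-5p turned to 0.11, and the arms of miR-106b did not pass the filter. Leaving miR-93-3p out of the cluster turned its share difference to -0.166 percentage points.

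Leaving out each library in turn gave 86 to 140 lower and 46 to 78 higher miRNAs and 27 to 74 called arms. Lower calls fell to 86 without exosome library 1 and higher calls to 46 without exosome library 2. Called arms fell to 27 without fibroblast library 1, 33 without library 2 or 4, and 40 without exosome library 1. The log2 fold change was then -2.60 to -1.89 for miR-25-3p, -2.67 to -1.74 for miR-93-5p, -4.05 to -1.78 for miR-106b-5p and -0.44 to 0.48 for miR-106b-3p. Without fibroblast library 1 or 2 miR-106b-5p did not pass the filter.

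With the replicate number as a block (replicate block), miR-106b-3p turned to a log2 fold change of -0.49. The arm usage of miR-93-3p passed at 1.60 with the block, and at the level of the hairpin with its main value of 1.30 (both natural logarithms). The block changed no other call of the 6 arms. Numbers are shared by 2 pairs only, whose deviations correlated at -0.10 and 0.17. Pairs with different numbers ranged from -0.26 to 0.21. What libraries of the same culture would give is not known here, so whether the numbers mark pairs stays unknown. In each case the cause was not tested. Exosome depth limits every arm but miR-93-3p, with 0 to 50 counts per library.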
